A study of Homo sapiens with 8 samples.

Results

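The 48 genes described here encode the machinery that copies DNA and the enzymes that make its building blocks: 5 origin licensing genes, the 6 subunits of the MCM2-7 helicase, 6 helicase activation genes, 4 subunits of polymerase alpha-primase, 5 subunits of polymerases delta and epsilon, 8 clamp, clamp loader and Okazaki fragment genes, 3 single-strand binding genes, 5 nucleotide supply genes and 6 regulators of the G1/S transition and of S phase chromatin. They were taken by symbol from a list of genes grouped by function, and all 48 were found among the 62649 genes of each count file. Polyadenylated RNA was sequenced from SW480 and SW620, human colorectal adenocarcinoma lines derived from a primary tumour and a metastasis of the same patient, each carrying a fluorescent (mCherry) B8 immunoproteasome subunit in control and treated cells alike. For each line there were 2 control and 2 caffeine libraries, 4 groups in all. The labels name caffeine as the treatment of the sequenced cells but do not tie a dose or a duration to these libraries. The protocol describes SW620 only, at 30 to 500 µM for 72 h or at 125 µM for 28 days. Each line is a cell line in culture, and differences between the lines are differences between these 2 lines, not between stages of disease.

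Origins of replication are licensed in G1 when the origin recognition complex, CDC6 and CDT1 load the MCM2-7 ring onto DNA. CDC45 and the GINS complex then turn the ring into the active CMG helicase, polymerase alpha-primase lays down primers, and polymerases epsilon and delta extend them on the PCNA clamp. Ribonucleotide reductase, thymidylate synthase, thymidine kinase and dUTPase supply and clean the deoxynucleotide pool, and many of these genes are transcribed under E2F factors as cells enter S phase. Caffeine is known as an adenosine receptor antagonist and, at high concentrations, as an inhibitor of the DNA damage kinases ATM and ATR.

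The libraries held 15760259 to 23269315 reads assigned to genes, and the 3 counts that an observed 0 still allows amounted to 0.129 to 0.19 CPM (counts per 1e+06 reads), counting error only. All 48 genes were among the 17671 tested. Mitochondrially encoded genes took 1.63% of assigned reads in SW480 caffeine replicate 2 and 4.38% to 6.16% in the other 7 libraries, and that library is named below where a result rests on it. The 12 markers of colorectal epithelium summed to 4624 to 6016 CPM in SW480 controls and 6563 to 6901 CPM with caffeine, and to 10714 to 10778 CPM and 12942 to 14349 CPM in SW620; CDX1 was at 0 counts in all 8 libraries and KRT20 at 0 or 1 count in SW480. In SW480 the sums of the 10 fibroblast, 10 leukocyte and 8 endothelial markers were at most 9.84, 4.49 and 2.34 CPM. In SW620, in controls and then with caffeine, the fibroblast sum was 38.6 to 40.9 and 46.6 to 49.3 CPM, the endothelial sum 9.72 to 9.82 and 15.5 to 16.1 CPM, and the leukocyte sum 632 to 655 and 762 to 770 CPM. In that line all 4 sums were higher with caffeine, without overlap. There KRT19, KRT20, CDH1, COL1A1, PECAM1 and VWF rose and CDX2 and CDH17 fell, while 0 of the 4 leukocyte markers tested passed the test and the defining PTPRC and MS4A1 were at 0 counts; LCP1, at 12438 to 15222 counts, carried that sum. The part of these shifts in the results on the replication genes was not tested.

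With caffeine, more of the replication genes rose than fell in SW480, and more fell than rose in SW620. In SW480, 4 of the 48 genes rose (GINS2, LIG1, RRM2 and TYMS) and 0 fell, where 3.6% of all tested genes were called, 1.67% higher and 1.93% lower, by edgeR's quasi-likelihood test at an adjusted p of 0.05. At an unadjusted p under 0.05 the counts were 16 higher and 0 lower, and the share of all tested genes at that threshold was not counted. DESeq2 called 5 members higher and 0 lower and limma-voom 3 and 0, beside 655 and 520 of all 17671 tested genes in either direction. In SW620, 9 fell (PCNA, MCM6, E2F1, GINS3, FEN1, GINS2, ORC6, RPA2 and DUT) and 3 rose (RRM2, TK1 and RFC1), where 14.4% of all tested genes were called, 6.25% lower and 8.1% higher. The members called lower were 18.8% of the 48, above that background, and those called higher 6.25%, below it. The median log2 fold change over the 48 genes was 0.21 in SW480 and -0.21 in SW620, beside 0 and -0.01 over all tested genes. The SW620 median was -0.13 without SW620 caffeine replicate 1 and -0.27 without SW620 caffeine replicate 2, and the SW480 median was 0.15 without SW480 caffeine replicate 2. In bulk RNA, fewer cells expressing these genes and less of their RNA per cell cannot be told apart.

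Summed over the 48 genes, the level was 5986 and 6716 CPM in the SW480 controls and 6996 and 7822 CPM with caffeine. In SW620 the sum was 4719 and 4759 CPM in the controls and 4032 and 4172 CPM with caffeine. The sum was higher with caffeine in SW480 and lower in SW620, and in neither line did the caffeine and control libraries overlap. The highest sum was in SW480 caffeine replicate 2, the library with the lowest mitochondrial share of the 8. With mitochondrial genes left out of the fit the same 4 genes were called in SW480. Their calls were lost when SW480 caffeine replicate 2 or SW480 control replicate 1 was left out. Either omission leaves 1 library in a group, and fewer of all tested genes were called as well. Without that caffeine library the log2 fold changes were 0.62 for GINS2, 0.30 for LIG1, 0.43 for RRM2 and 0.57 for TYMS. Without that control library they were 0.42, 0.47, 0.38 and 0.50 in the same order. Gene by gene, the 2 caffeine libraries both lay above the 2 controls for 26 members in SW480 and both below for 2, where 21.5% of all tested genes did so in each direction. In SW620 both lay below for 30 members and above for 11, where 32.4% and 29.7% of all tested genes did so. Of the 48 members, 30 (62.5%) had a positive fold change in SW480 and a negative one in SW620, as had 24.7% of all tested genes. A further 12 (25%) were positive in both lines, 4 (MCM4, GINS3, POLE2 and CCNE2) negative in both, and 2 (PRIM2 and RFC1) negative in SW480 and positive in SW620; these shares over all tested genes were 24.6%, 25.8% and 23%.

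**Figure D1:**
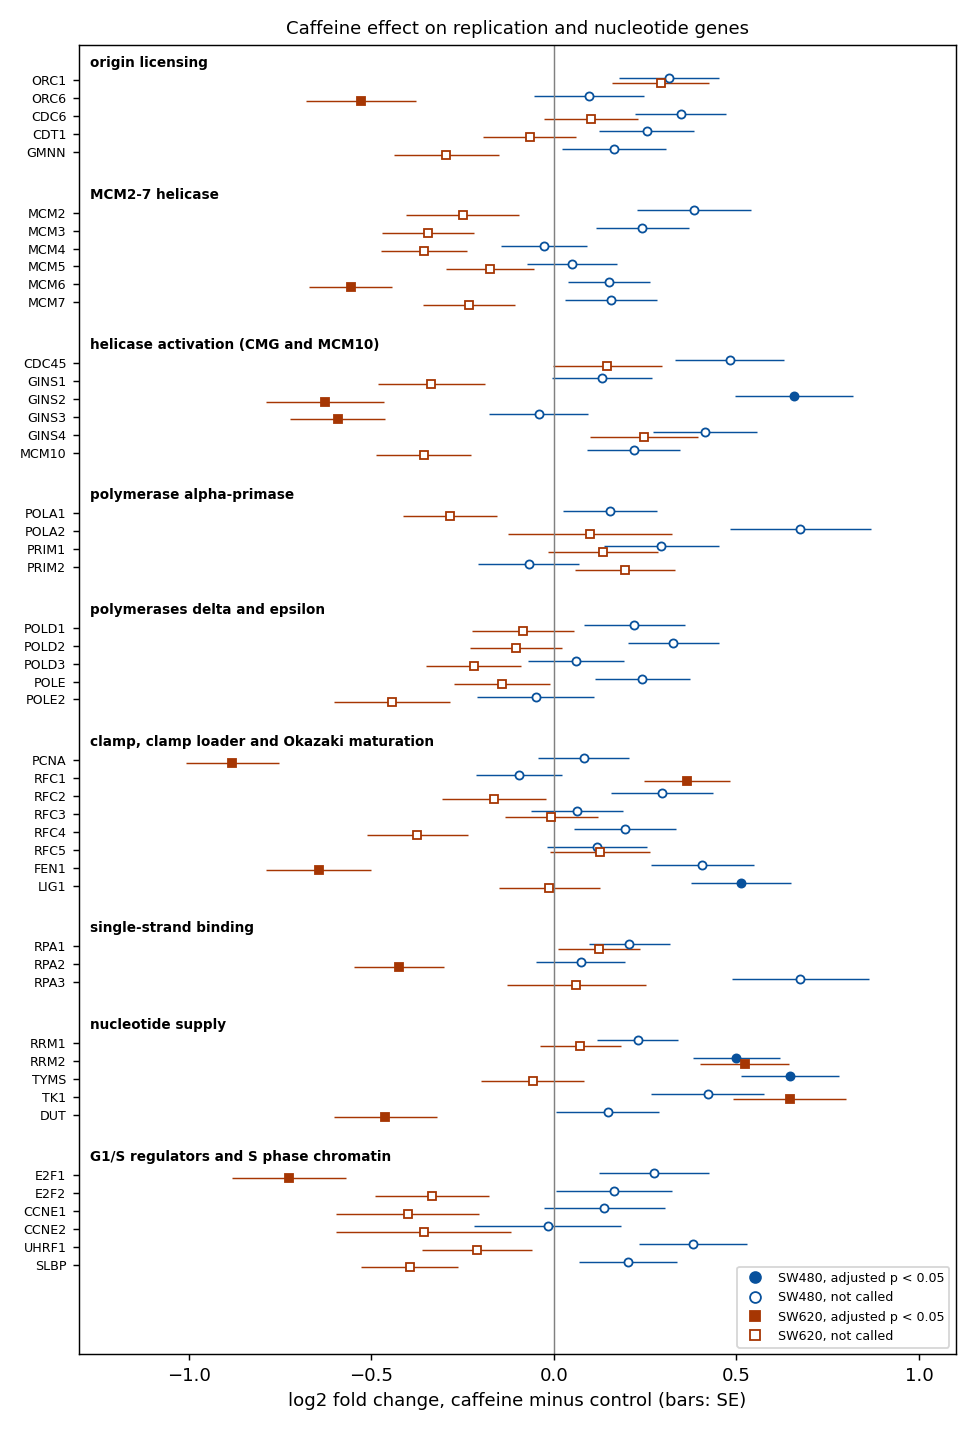
Log2 fold change of caffeine against control (horizontal axis, bars show the SE) for the 48 genes, grouped by role, in SW480 (blue circles) and SW620 (brown squares), filled where the adjusted p was under 0.05. Most blue points lie right of 0 and most brown points left of it, with the nucleotide supply genes RRM2 and TK1 right of 0 in both lines.

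The effect of caffeine itself differed between the lines, by the test of the difference, for 6 members: GINS2, FEN1, E2F1, PCNA, MCM6 and TYMS. All 6 differences were negative, SW620 minus SW480, where 6.71% of all tested genes were called, 2.47% in that direction, and 0 members were called in the other, where 4.24% were. At an unadjusted p under 0.05, 25 members were lower and 1 was higher, and the share of all tested genes was not counted. DESeq2 called 7 lower and 0 higher and limma-voom 6 and 0, beside 1386 and 1092 of all 17671 tested genes in either direction. The median difference over the 48 genes was -0.45, beside -0.02 over all tested genes. Of the 48 differences 43 were negative and 10.4% positive, where 48% of all tested genes had a positive difference. A further 9 genes had an adjusted p between 0.05 and 0.1: ORC6, MCM2, MCM3, GINS3, MCM10, RFC4, RPA2, DUT and SLBP. The share of all tested genes in that range was not counted.

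The sequence around the starts of the members was read from RefSeq promoter windows on GRCh38.p14, from 250 bases before to 50 bases after each start. The table held a window for 41 of the 48 members; MCM4, MCM5, GINS4, POLD3, RPA2, RPA3 and CCNE2 had none. Searched on both strands, one of the E2F core sequences TTCCCGC and TTGGCGC was in 26 of the 41 windows (63.4%), beside 9.23% of the 35116 windows of the table and 12.9% of the 17358 windows of tested genes. The CCAAT box (CCAAT) was in 23 (56.1%, beside 34.6% of all windows) and the CHR element (TTTGAA) in 2 (4.88%, beside 15.2%). The cores were in 4 of 5 origin licensing windows, in 5 of 5 nucleotide supply windows and in 2 of 5 windows of G1/S regulators. By call in SW620, a core was in 3 of 3 windows of genes called higher, 5 of 8 called lower and 18 of 30 not called; no difference between these was tested. Of the 13 called members with a window, 10 held a core, and ORC6, PCNA and FEN1 held none of these letters. A match is a description of the letters and not a binding site. MCM6 is shown at length because its window held both of its cores in the 200 bases upstream of the start, and these bases lie outside GENCODE 29 exons. DUT also held both of its cores there, but 94 of its 200 bases lie in such exons. For GINS3, LIG1 and RRM2, printed below, all 200 do, and the core of RFC1 begins at position +35, after the start. The MCM6 bases are at chr2:135876444-135876643 on the minus strand, with the cores in capitals.
MCM6: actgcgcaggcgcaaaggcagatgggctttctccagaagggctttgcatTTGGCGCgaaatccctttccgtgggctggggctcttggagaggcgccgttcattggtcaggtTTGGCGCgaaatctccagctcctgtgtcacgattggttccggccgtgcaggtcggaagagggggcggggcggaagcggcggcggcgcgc

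The cores of the other called members are printed in at most 30 bases, on the strand that holds the core, 5′ to 3′. Each core is in capitals, so that the genes that fell, rose or split between the lines can be read against each other. The positions are chr16:85688968-85688997 (plus strand) for GINS2, chr16:58392454-58392483 (minus) for GINS3, chr4:39366313-39366339 (minus) for RFC1, chr19:48170439-48170468 (minus) for LIG1 and chr2:10122364-10122393 (minus) for RRM2. They are chr18:657602-657631 (minus) for TYMS, chr17:78187047-78187076 (plus) for TK1, chr15:48332160-48332189 (plus) and chr15:48332143-48332172 (minus) for the overlapping pair of DUT, and chr20:33686386-33686415 (minus) for E2F1.
GINS2: cggccgccgttTTCCCGCcacggcgagagc
GINS3: ttgaaactcgtTTCCCGCgcccggggacgc
DUT, TTGGCGC core: aaatttcggttTTGGCGCgctccctgcggc
DUT, TTCCCGC core: aaaaccgaaatTTCCCGCcagccccgcccc
E2F1: gcaaaaaggatTTGGCGCgtaaaagtggcc
RFC1: gggagaagttgTTGGCGCgaatggatc
RRM2: tctcggcggccTTGGCGCgcgcgggccccg
TK1: taagcccctggTTCCCGCgccgaccgcttt
TYMS: ccgcgcgccttTTCCCGCggccgtcccgcg
LIG1: cttcaccccttTTCCCGCcctcctcccatt

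Among the 5 origin licensing genes, ORC6 (chr16:46689643-46698394), the smallest subunit of the origin recognition complex, fell in SW620 and the other 4 did not pass the test in either line. ORC6 stood at 36.1 and 40.3 CPM in the SW480 controls, 44.7 and 37.2 CPM with caffeine, 39.8 and 50.8 CPM in the SW620 controls and 33.0 and 29.9 CPM with caffeine. The SW620 libraries did not overlap, while those of SW480 did. The log2 fold change in SW620 was -0.53 ± 0.15 (SE) with an adjusted p of 0.0259, and the call was lost without SW620 control replicate 2 (adjusted p = 0.373), caffeine replicate 1 (0.0672) or caffeine replicate 2 (0.184). ORC1, the ATPase subunit, and the loader CDC6 had positive fold changes in both lines. CDT1, the other loader, and geminin (GMNN), which binds CDT1 and blocks relicensing, had positive fold changes in SW480 and negative ones in SW620.

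The 6 subunits of the MCM2-7 ring unwind DNA ahead of the fork. In SW620 all 6 subunits had both caffeine libraries below both controls, where 32.4% of all tested genes did so. The median of the log2 fold changes was -0.30, and MCM6 (chr2:135839626-135876426) was the 1 subunit that passed the test. MCM6 stood at 209 and 211 CPM in the SW620 controls and at 136 and 150 CPM with caffeine. In SW480 it stood at 306 and 318 CPM in the controls and at 337 and 356 CPM with caffeine, so that caffeine libraries were the lower pair in SW620 and the higher pair in SW480. The fold change was -0.56 ± 0.11 in SW620 (adjusted p = 0.00346) and 0.15 ± 0.11 in SW480 (0.495), and the difference of -0.71 ± 0.16 passed the test (0.0135). The SW620 call was lost without SW620 control replicate 1 (0.054), control replicate 2 (0.0652) or caffeine replicate 1 (0.0603), and the difference without the same libraries (0.0887, 0.0979 and 0.0725). MCM4 (-0.36, adjusted p = 0.0541) and MCM3 (-0.34, 0.0812) lay just outside the threshold in SW620, and MCM5 had the smallest shift of the ring (-0.18, 0.378). In SW480, 5 of the 6 fold changes were positive and 0 were called; MCM2 had the largest, 0.38 ± 0.16, with an adjusted p of 0.185.

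CDC45 and the 4 GINS subunits complete the CMG helicase, and MCM10 helps to start it. GINS2 (chr16:85676198-85690073) was the 1 member called in opposite directions in the 2 lines. It stood at 41.4 and 59.9 CPM in the SW480 controls and at 77.9 and 81.8 CPM with caffeine, and at 68.1 and 79.5 CPM in the SW620 controls and 51.6 and 44.0 CPM with caffeine. Caffeine libraries were thus both above the controls in SW480 and both below them in SW620, and the SW480 control replicates lay further apart than the pairs of the other groups. GINS2 rose by 0.66 ± 0.16 on the log2 scale in SW480 (adjusted p = 0.0331) and fell by 0.63 in SW620 (-0.63 ± 0.16, 0.0149). The difference, -1.28 ± 0.23, had an adjusted p of 0.00282 and stayed under the threshold whichever library was left out, at up to 0.0239. The call in SW480 was lost without SW480 control replicate 1 (0.21), caffeine replicate 1 (0.055) or caffeine replicate 2 (0.258), and that in SW620 without SW620 control replicate 2 (0.181) or caffeine replicate 2 (0.15).

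GINS3 (chr16:58295080-58406144), a partner subunit of GINS2 in the same complex, fell in SW620 but did not follow it in SW480. It stood at 43.8 CPM in both SW620 controls and at 27.8 and 30.3 CPM with caffeine, and at 21.8 and 24.8 CPM in the SW480 controls and 23.3 and 22.1 CPM with caffeine. The SW620 pairs were apart and the SW480 pairs overlapped. The fold change of GINS3 was -0.59 ± 0.13 in SW620 (adjusted p = 0.00592) and -0.04 ± 0.14 in SW480 (0.912); without SW620 control replicate 1, control replicate 2 or caffeine replicate 1 the adjusted p in SW620 was 0.0714, 0.0734 and 0.0666. Exons of GINS3 overlap 558 bases of a gene on the opposite strand. GINS1 and MCM10 had negative fold changes in SW620 and positive ones in SW480 without passing the test, while CDC45 and GINS4 had positive fold changes in both.

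None of the 4 subunits of polymerase alpha-primase, which makes the primers, and none of the 5 subunits of polymerases delta and epsilon, the lagging and leading strand polymerases, passed the test in either line. At an unadjusted p under 0.05, 1 subunit of each group was higher in SW480 and 1 of each lower in SW620. The share of all tested genes at that threshold was not counted, and DESeq2 called 0 of the 9. POLA2, the accessory subunit of polymerase alpha, had the largest fold change of the 48 genes in SW480: it stood at 14.95 and 23.2 CPM in the controls and 26.9 and 33.9 CPM with caffeine, without overlap (0.68 ± 0.19, adjusted p = 0.0634). It passed the test with no filter on low counts (0.00171), with the replicate block (0.046), in a separate fit of the SW480 libraries (0.014), and when SW480 control replicate 2 (0.00699) or caffeine replicate 1 (0.0472) was left out. It was at 0.357 with SW480 control replicate 1 left out and at 0.485 for caffeine replicate 2. POLA1, the catalytic subunit of polymerase alpha and the largest shift of its complex in SW620, stood at 107 and 106 CPM in the SW620 controls and 78.7 and 96.1 CPM with caffeine (-0.28 ± 0.13, adjusted p = 0.161), and at 143 and 123 CPM in the SW480 controls and 147 and 149 CPM with caffeine. POLE2, a subunit of polymerase epsilon, stood at 18.9 and 19.7 CPM in the SW620 controls and 14.9 and 13.5 CPM with caffeine (-0.44 ± 0.16, 0.0726), and at 15.3 and 19.3 CPM in the SW480 controls and 18.4 and 15.2 CPM with caffeine. Both genes had their caffeine libraries below the controls in SW620. In a separate fit of the SW620 libraries POLA1 (0.0485) and POLE2 (0.0121) passed the test. That fit called 4561 of 17504 genes, where the main fit called 2537 of 17671. In SW480 the caffeine libraries of POLA1 lay above the controls and those of POLE2 overlapped them. All 5 subunits of polymerases delta and epsilon had negative fold changes in SW620, from -0.44 to -0.08, and the primase subunits PRIM1 and PRIM2 had positive ones (0.13 and 0.19).

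PCNA (chr20:5114953-5126626), the sliding clamp that tethers the polymerases to DNA, had the largest change of the 48 genes in SW620. It stood at 316 and 335 CPM in the SW620 controls and at 186 and 168 CPM with caffeine. In SW480 it stood at 512 and 628 CPM in the controls and at 597 and 610 CPM with caffeine, inside the spread of the controls. PCNA fell in SW620 to 0.543 of its control level (-0.88 ± 0.13, adjusted p = 0.000207), against 0.08 ± 0.13 in SW480 (0.768), and the difference was -0.96 ± 0.18 (0.0038). It was the 1 member whose SW620 call held whichever library was left out, at adjusted p values up to 0.0078, and its difference held up to 0.039. The annotation lists 3 pseudogenes named after PCNA, with which 75-base reads can be shared.

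FEN1 (chr11:61792637-61797244), the nuclease that removes the flap of each Okazaki fragment, also fell in SW620. It stood at 99.3 and 101 CPM in the SW620 controls and 65.5 and 62.5 CPM with caffeine, and at 168 and 204 CPM in the SW480 controls and 211 and 282 CPM with caffeine. The caffeine libraries were the lower pair in SW620 and the higher pair in SW480. The fold change was -0.64 ± 0.14 in SW620 (adjusted p = 0.00662) and 0.41 ± 0.14 in SW480 (0.125), and the difference was -1.05 ± 0.20 (0.00513), under the threshold whichever library was left out, at up to 0.029. The SW620 call was lost without SW620 control replicate 1 (0.0522), control replicate 2 (0.064) or caffeine replicate 2 (0.0638). FEN1 has 1 named pseudogene and shares 49 exonic bases with FADS2 on its strand.

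LIG1 (chr19:48115445-48170603), the ligase that seals the fragments that FEN1 trims, passed the test in SW480 and not in SW620. It stood at 99.5 and 106 CPM in the SW480 controls and 126 and 167 CPM with caffeine, and at 74.9 and 68.2 CPM in the SW620 controls and 72.0 and 69.9 CPM with caffeine. The SW480 caffeine libraries lay above the controls, with replicate 2 the higher, and the SW620 pairs overlapped. LIG1 rose in SW480 (0.51 ± 0.14, adjusted p = 0.0479) and had a fold change of -0.01 ± 0.14 in SW620 (0.979). The difference did not pass the test (-0.52 ± 0.19, 0.115). In a separate fit of the SW480 libraries LIG1 was not called (0.0675). Its call was the least stable of the 4 in SW480: the fold change was 0.30 when SW480 caffeine replicate 2 was left out (0.448) and 0.47 for control replicate 1 of that line (0.161), the call was lost without any 1 of the 4 SW620 libraries (0.0615 to 0.0878), and limma-voom gave 0.0568.

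RFC1 (chr4:39287456-39366375), the large subunit of the clamp loader that opens PCNA, was the 1 member of its group to rise in SW620. It stood at 97.6 and 96.0 CPM in the SW620 controls and 119 and 130 CPM with caffeine, and at 105 and 95.03 CPM in the SW480 controls and 94.0 and 93.0 CPM with caffeine. The SW620 caffeine libraries were above every other library. The fold change of RFC1 was 0.37 ± 0.12 (adjusted p = 0.0474); it was lost without SW620 control replicate 1 (0.259), control replicate 2 (0.305), caffeine replicate 1 (0.0954) or caffeine replicate 2 (0.288), and with no filter on low counts (0.067). The small loader subunits RFC2, RFC3, RFC4 and RFC5 did not pass the test in either line, and RFC4 was nearest to it (-0.37 ± 0.14 in SW620, 0.0823).

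RPA1, RPA2 and RPA3 form the heterotrimer that coats single-stranded DNA. RPA2 (chr1:27891524-27914746) fell in SW620, from 87.5 and 89.7 CPM to 66.1 and 66.0 CPM, and stood at 91.6 and 108 CPM in the SW480 controls and 107 and 103 CPM with caffeine. The treated SW620 libraries were the lowest of the 8. Its fold change was -0.42 ± 0.12 in SW620 (adjusted p = 0.0291), and the call was lost without SW620 control replicate 1 (0.173), control replicate 2 (0.219), caffeine replicate 1 (0.125) or caffeine replicate 2 (0.147). RPA2 has 3 named pseudogenes. The large subunit RPA1 (0.12 ± 0.11, 0.512) did not pass the test in SW620. RPA3 stood at 44.7 and 75.1 CPM in the SW480 controls and at 85.4 and 106 CPM with caffeine, a fold change just outside the threshold (0.68, 0.0569).

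**Figure D2:**
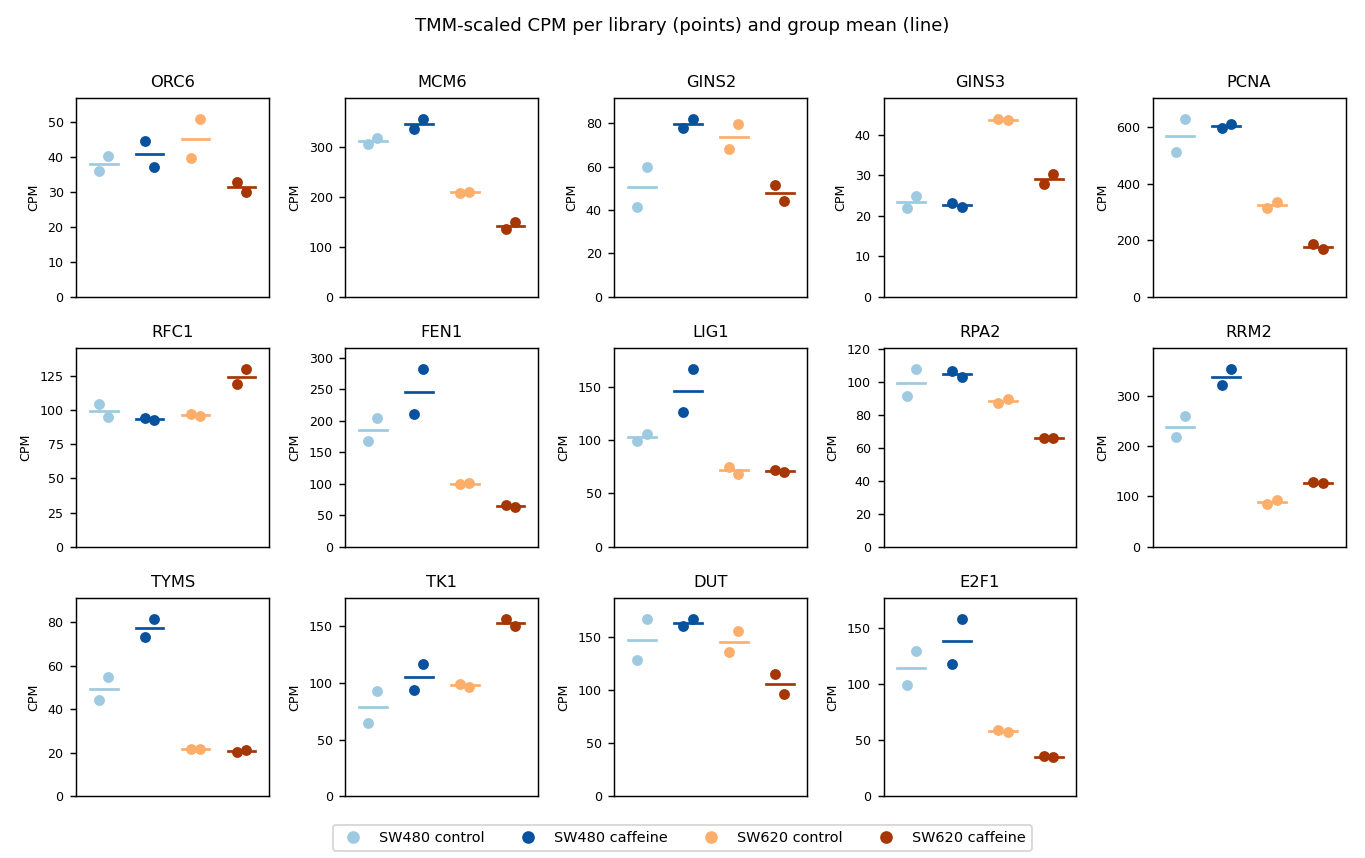
CPM of the 14 members called in either line or in the difference, with 1 panel per gene, points for the 2 libraries of each group and a line at the group mean. In SW620 (orange control, brown caffeine) the points fall for 9 genes, PCNA from 316 and 335 to 186 and 168 CPM among them, and rise for RFC1, RRM2 and TK1.

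The nucleotide supply genes split within themselves. RRM2 (chr2:10120698-10131419), the small, S phase-regulated subunit of ribonucleotide reductase, was the 1 member that rose in both lines. It stood at 218 and 259 CPM in the SW480 controls and 322 and 353 CPM with caffeine, and at 85.1 and 92.2 CPM in the SW620 controls and 129 and 126 CPM with caffeine. In both lines the caffeine libraries lay above the controls. The fold changes of RRM2 were 0.50 ± 0.12 in SW480 (adjusted p = 0.0312) and 0.52 ± 0.12 in SW620 (0.00851), and their difference was 0.02 ± 0.17 (0.973), which does not show that the effects were equal. The SW480 call was lost when control replicate 1 (0.167) or caffeine replicate 2 (0.244) of that line or either SW620 control (0.0677 and 0.0676) was left out, and the SW620 call without SW620 control replicate 1 (0.15), control replicate 2 (0.0691), caffeine replicate 1 (0.059) or caffeine replicate 2 (0.0501). In a separate fit of the SW480 libraries the SW480 call of RRM2 was also lost (0.0817). RRM2 has 3 named pseudogenes and shares 1077 exonic bases with a noncoding gene on its strand. RRM1, the large subunit, had positive fold changes that did not pass the test (0.23 ± 0.11 and 0.07 ± 0.11).

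TK1 (chr17:78174075-78187233), the cytosolic thymidine kinase of the salvage pathway, rose in SW620 from 99.2 and 96.9 CPM to 157 and 150 CPM, and stood at 64.6 and 92.8 CPM in the SW480 controls and 93.7 and 117 CPM with caffeine. The caffeine libraries were above the controls in both lines, by a margin of under 1 CPM in SW480. The fold change of TK1 was 0.65 ± 0.15 in SW620 (adjusted p = 0.01) and 0.42 ± 0.16 in SW480 (0.146). The SW620 call was lost without SW620 control replicate 1 (0.0777), control replicate 2 (0.0974) or caffeine replicate 1 (0.0592).

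TYMS (chr18:657604-673578), thymidylate synthase, which makes thymidylate anew, rose in SW480 and had the smallest adjusted p of the 48 genes there. It stood at 44.3 and 54.7 CPM in the SW480 controls and 73.4 and 81.5 CPM with caffeine, and between 20.6 and 21.8 CPM in all 4 SW620 libraries. The SW480 caffeine pair was the highest of the 4 groups, and the SW620 groups lay close together. The fold change of TYMS was 0.65 ± 0.13 in SW480 (adjusted p = 0.0161) and -0.06 ± 0.14 in SW620 (0.839), and the difference was -0.71 ± 0.20 (0.0387). The SW480 call was lost when control replicate 1 (0.11) or caffeine replicate 2 (0.172) of that line was left out; the difference was lost without either of those (0.0982 and 0.119) or any 1 of the 4 SW620 libraries (0.103 to 0.162). TYMS shares 1150 exonic bases with TYMSOS and ENOSF1 on the opposite strand and has 2 named pseudogenes.

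DUT (chr15:48331011-48343373), the dUTPase that keeps uracil out of DNA, fell in SW620. It stood at 136 and 155 CPM in the SW620 controls and 115 and 96.3 CPM with caffeine, and at 128 and 167 CPM in the SW480 controls and 160 and 166 CPM with caffeine. The pairs were apart in SW620 and overlapped in SW480. The fold change of DUT was -0.46 ± 0.14 (adjusted p = 0.0371), and it was lost without SW620 control replicate 1 (0.0945), control replicate 2 (0.323) or caffeine replicate 2 (0.297). DUT has 8 named pseudogenes, the most of any member. In SW620, then, RRM2 and TK1 rose, DUT fell, and TYMS and RRM1 did not pass the test.

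All 6 regulators of the G1/S transition and of S phase chromatin had negative fold changes in SW620, with a median of -0.38, and E2F1 passed the test. E2F1 (chr20:33675683-33686404), an activating transcription factor of S phase genes, stood at 59.2 and 57.3 CPM in the SW620 controls and 35.6 and 34.9 CPM with caffeine, and at 99.4 and 129 CPM in the SW480 controls and 118 and 158 CPM with caffeine. The SW620 pairs were far apart for their spread, and the SW480 pairs overlapped. The fold change of E2F1 was -0.72 ± 0.16 in SW620 (adjusted p = 0.00516) and 0.27 ± 0.15 in SW480 (0.333), and the difference was -0.9995 ± 0.22 (0.0107). The SW620 call was lost without SW620 control replicate 1 (0.0507), and the difference without that library (0.0526) or SW480 caffeine replicate 2 (0.0602). E2F2, the cyclins CCNE1 and CCNE2, which activate CDK2, UHRF1, which recruits the maintenance DNA methyltransferase, and SLBP, which binds histone mRNA, did not pass the test; SLBP was nearest (-0.39, 0.0588).

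Between the untreated lines, 33 of the 48 members were called, a share near that of all tested genes. SW620 controls were higher than SW480 controls for 9 members and lower for 24, where 65.6% of all tested genes were called, 33% higher and 32.6% lower; the members called were 18.8% and 50% of the 48. The median log2 difference was -0.34 beside 0.03 over all tested genes. Both SW620 controls lay above both SW480 controls for 12 members and below for 26, where 42.8% and 40.6% of all tested genes did so. The 6 genes named in each direction were picked as the largest called differences, so the separation of their libraries follows largely from that choice. The largest excesses in SW620 were GINS3 (0.91 ± 0.13), CDT1 (0.84 ± 0.13), MCM5 (0.66 ± 0.12), PRIM1 (0.62 ± 0.16), GINS2 (0.54 ± 0.16) and RFC4 (0.51 ± 0.14). CDT1 stood at 63.5 and 80.0 CPM in SW480 and 129 CPM in both SW620 controls. MCM5 stood at 75.1 and 82.6 CPM in SW480 and 127 and 122 CPM in SW620, PRIM1 at 20.2 and 23.6 CPM against 31.9 and 35.5 CPM, and RFC4 at 63.4 and 78.7 CPM against 101 CPM in both. For each of these genes both SW620 controls exceeded both SW480 controls, with adjusted p values from 1.31e-05 for GINS3 to 0.00697 for GINS2, whose call alone among the 6 was lost without a library (0.0949 with SW480 control replicate 1 left out, 0.0874 with replicate 2 of the SW620 control).

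The largest deficits in SW620 controls were RRM2 (-1.43 ± 0.12), POLA2 (-1.43 ± 0.21), RPA1 (-1.19 ± 0.11), TYMS (-1.19 ± 0.14), GINS1 (-1.09 ± 0.14) and CCNE1 (-1.08 ± 0.18). RPA1 stood at 276 and 284 CPM in SW480 and 122 and 123 CPM in SW620. POLA2 stood at 14.95 and 23.2 CPM against 6.58 and 7.62 CPM, GINS1 at 40.2 and 48.7 CPM against 21.1 and 20.7 CPM, and CCNE1 at 11.1 and 10.0 CPM against 5.36 and 4.66 CPM. Both SW620 controls were below both SW480 controls for all 6 genes, with adjusted p values from 2.37e-08 for RRM2 to 4.88e-05 for CCNE1, and these calls held whichever library was left out. POLA2 shares 2012 exonic bases with another gene on its strand. The line difference was not in 1 direction within complexes: MCM3 and MCM5 were higher and MCM4, MCM6 and MCM7 lower in SW620, and GINS2 and GINS3 were higher and GINS1 and GINS4 lower. Of these, GINS2, MCM4 and GINS4 were among 8 members no longer called when SW620 control replicate 2 was left out (0.0516 to 0.156), and GINS4 was also lost with replicate 1 left out (0.0547).

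Levels can be set between genes only per length, as CPM per kilobase of exon (RPKM). On that scale PCNA was the most abundant of the 48 in every group, at 388 RPKM in SW480 controls and 221 RPKM in SW620 controls, followed by MCM7 (229 RPKM) in SW480 and by MCM3 (125 RPKM) in SW620. CCNE2 was the least abundant, at 1.395 and 0.699 RPKM. The subunits of the MCM2-7 ring, which bind in equal numbers, did not have equal mRNA levels: MCM7 made up 47.2% ± 2.01 (SD, n = 2) of the summed RPKM of the ring in SW480 controls and 30.4% ± 0.605 in SW620 controls, and MCM3 19.1% ± 0.387 and 33.4% ± 0.179. The highest subunit exceeded the lowest, MCM5, 21.3-fold in SW480 controls and 7.36-fold in SW620 controls. The length used is that of all annotated exons merged, 7338 bases for MCM5 and 4386 for MCM7. It need not be the length of the transcripts expressed, so gaps between genes are approximate. With caffeine the shares of MCM7 were 47.0% ± 0.571 and 32.3% ± 1.42, so that its share differed more by line than with treatment. The share of MCM6 was 13.6% ± 0.128 in SW620 controls and 11.6% ± 0.318 with caffeine.

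**Figure D3:**
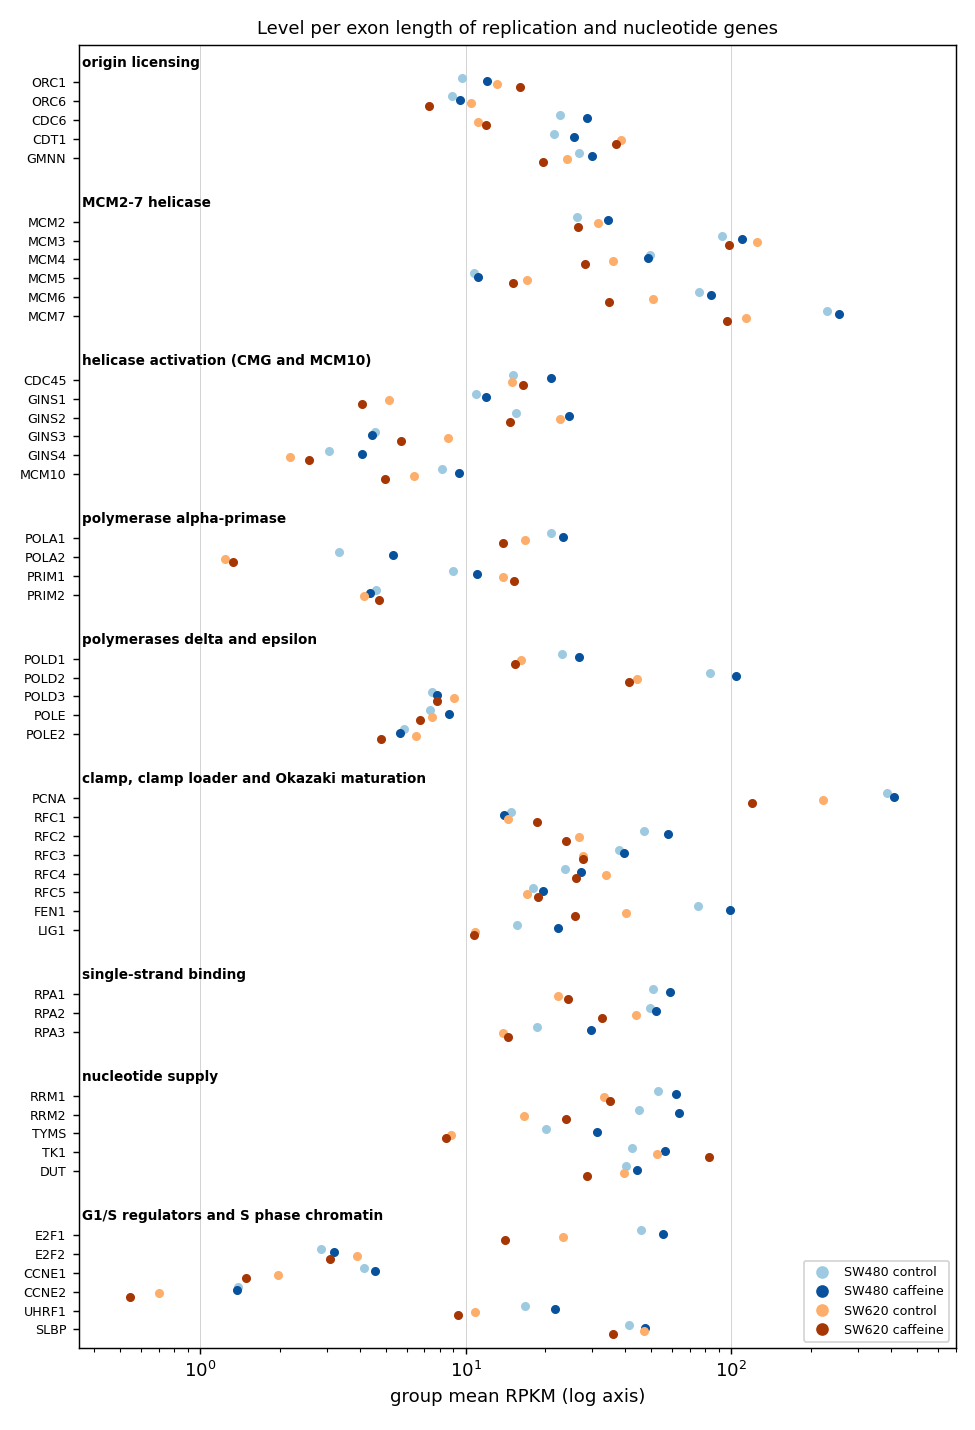
Group mean RPKM (log axis) of the 48 genes, grouped by role, with 1 colour per group. PCNA is furthest right, near 388 RPKM in SW480 controls and 120 RPKM in SW620 caffeine, and CCNE2 furthest left, near 1.395 and 0.545 RPKM.

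Ratios between partner genes in the same library do not depend on the scaling between libraries and are given as descriptions. The ratio of RRM2 to RRM1 was 0.846 ± 0.0866 (SD, n = 2 in each group) in SW480 controls and 1.02 ± 0.0035 with caffeine, and 0.501 ± 0.0287 and 0.685 ± 0.0313 in SW620. PCNA per mean clamp loader subunit was 13.7 ± 0.475 and 13.0 ± 0.51 in SW480 and 9.23 ± 0.307 and 5.23 ± 0.358 in SW620. The former ratio was higher with caffeine in both lines, and the latter lower in SW620 while its SW480 libraries met at 13.3. FEN1 per LIG1 was 4.80 ± 0.46 and 4.47 ± 0.0421 in SW480 and 3.72 ± 0.285 and 2.39 ± 0.0268 in SW620. The ratio of TK1 to TYMS was 2.09 ± 0.224 and 1.80 ± 0.147 in SW480 and 5.98 ± 0.119 and 9.75 ± 0.473 in SW620 and was highest in treated SW620. CDT1 per GMNN was 0.807 ± 0.0143 and 0.863 ± 0.0778 in SW480 and 1.61 ± 0.00434 and 1.88 ± 0.106 in SW620, a gap between the lines larger than any shift with caffeine. GINS2 per mean of GINS1, GINS3 and GINS4 was 2.49 ± 0.381 and 3.59 ± 0.121 in SW480 and 4.27 ± 0.488 and 3.58 ± 0.598 in SW620, where the libraries overlapped.

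**Figure D4:**
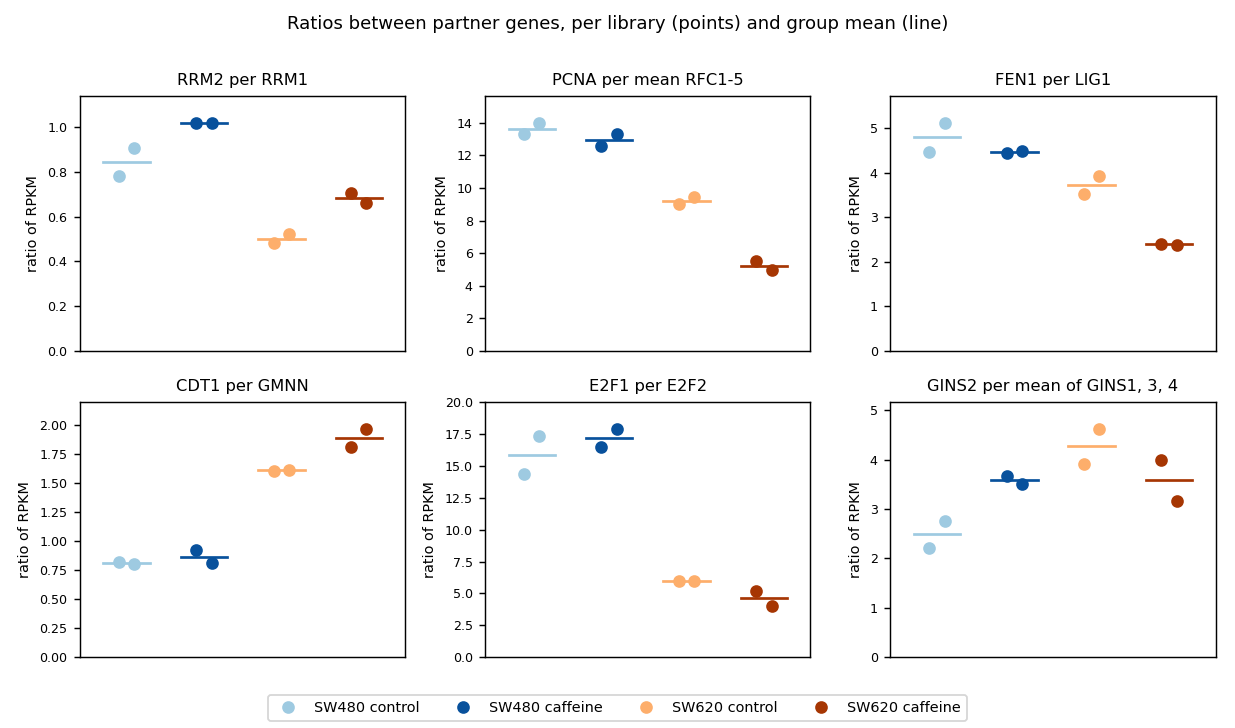
Ratios of RPKM between partner genes in each library (points) with the group mean (line), coloured by group. RRM2 per RRM1 is higher in both caffeine groups, and PCNA per mean clamp loader subunit drops in SW620 from 9.23 to 5.23.

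Of 69 other replication, nucleotide and G1/S genes on a list set beside the members, 68 were tested. In SW480, 1 rose (TIPIN, a fork protection factor), 1.47% of the 68, and 0 fell, where 1.67% of all tested genes rose and 1.93% fell. At an unadjusted p under 0.05 the counts were 9 and 0, and the share of all tested genes was not counted. TIPIN stood at 14.0 and 19.96 CPM in the SW480 controls and 27.6 and 24.95 CPM with caffeine (0.63 ± 0.16, adjusted p = 0.043), a call lost without any 1 of 7 libraries, all but SW480 control replicate 2 (0.0533 to 0.281). In SW620, 4 rose (5.88% of the 68) and 5 fell (7.35%), near the 8.1% and 6.25% of all tested genes. The risers were POLD4, the smallest subunit of polymerase delta (0.91 ± 0.20, 0.00503), CCNA2, the S phase cyclin (0.67 ± 0.13, 0.00193), the CDK inhibitor CDKN1A (0.71 ± 0.18, 0.0152) and TICRR, a CDC45 loading factor (0.49 ± 0.15, 0.0345). CCNA2 stood at 58.7 and 64.4 CPM in the SW620 controls and at 95.8 and 99.5 CPM with caffeine, with the pairs apart. Their calls were lost without SW620 control replicate 1 (0.106 for POLD4, 0.0633 for CCNA2, 0.213 for CDKN1A and 0.202 for TICRR), and those of CDKN1A without caffeine replicate 1 (0.133) and of TICRR without control replicate 2 (0.211) or caffeine replicate 2 (0.31).

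The 5 that fell in SW620 were TFDP1, the partner that E2F factors need to bind DNA, CHAF1A, a histone chaperone of the fork, SAMHD1, which degrades deoxynucleotides, IMPDH2, of guanine nucleotide synthesis, and CLSPN, a checkpoint adaptor. TFDP1 stood at 246 and 247 CPM in the SW620 controls and 143 and 165 CPM with caffeine (-0.68 ± 0.12, adjusted p = 0.00143), and its call held whichever library was left out, at up to 0.0345. Its SW480 libraries overlapped, and the difference between the lines was -0.82 ± 0.17 (0.00894), lost without SW620 control replicate 1 (0.0551), control replicate 2 (0.0582) or caffeine replicate 1 (0.0529). SAMHD1 stood at 18.2 and 20.6 CPM and fell to 12.8 and 10.8 CPM (-0.72 ± 0.15, 0.00334), lost without SW620 control replicate 2 (0.0795) or caffeine replicate 2 (0.0646). CHAF1A fell by 0.52 (0.0106), CLSPN by 0.49 (0.022) and IMPDH2 by 0.82 (0.0121). The level of IMPDH2 was 11.7 and 13.4 CPM in the SW620 controls and 6.19 and 8.00 CPM with caffeine. CHAF1A and CLSPN lost their calls without any 1 of the 4 SW620 libraries (0.0605 to 0.159 and 0.0924 to 0.173), and IMPDH2 without SW620 control replicate 2 (0.124) or caffeine replicate 1 (0.116). The difference between the lines also passed the test for SAMHD1 (-0.72, 0.0343) and CHAF1A (-0.70, 0.0247), lost without any 1 of 4 libraries for SAMHD1 (0.0938 to 0.215) and of 6 for CHAF1A (0.0549 to 0.167). E2F1 and TFDP1 thus both fell in SW620, while the cyclin CCNA2 and the members RRM2 and TK1 rose there. Between the untreated lines 13 of the 68 were higher (19.1%) and 35 lower (51.5%) in SW620, where 33% and 32.6% of all tested genes were. The largest of these differences was in CDKN1A, at 81.2 and 92.4 CPM in the SW480 controls and 4.00 and 5.06 CPM in the SW620 controls (-4.26 ± 0.17, adjusted p = 1.19e-12), and the mitochondrial thymidine kinase TK2 was the largest excess in SW620 (1.94 ± 0.17, 2.31e-08).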

How the data were processed

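Single-end 75-base reads from polyadenylated RNA (RNA integrity number 8 or above, directional kit, NextSeq 500) of 8 libraries were used, 2 per group, which the labels describe as biological replicates. The deposited files hold raw counts per gene; per the submitters' processing notes they were made with Trim Galore, STAR 2.7.3a and featureCounts 2.0.5 on hg38. The strand setting and the annotation release are not given in the sources used here. Rows of totals were left out (12 per file), and ambiguous reads were 7.36% to 8.37% of all reads, so that overlapping genes lose counts; 20 of the 48 members overlap another gene's exons. Symbols matched 62625 of 62649 identifiers, and lengths came from GENCODE 29, which held 58225.

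The members and lists were chosen with earlier results of these data known. One edgeR 4.0.16 quasi-likelihood fit (R 4.3.3, TMM scaling, filterByExpr, robust) of the 8 libraries with 4 group means gave the caffeine effect in each line, their difference and the line difference. Each was adjusted by the Benjamini-Hochberg method over 17671 genes at 0.05; errors are SE, and the biological coefficient of variation was 10.5%. CPM are TMM-scaled, and RPKM are CPM per kilobase of all annotated exons of the gene merged. Members named with values are those called in a caffeine comparison or the difference, the 6 largest line differences in each direction and 1 member of each complex with none called; up to 4 of the other pathway genes per list and comparison were named by adjusted p. Other genes are named for their place in a complex, having been picked with values in view. Alternatives were DESeq2 1.42.0, its size factors, limma 3.58.1 (voom), no filter, a separate fit, no mitochondrial genes, a replicate block and each library left out. Where 1 library is left in a group, it is assumed to vary like the others. The scripts were tested on simulated data.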

Additional observations from a re-analysis of the deposited data

Results flagged for a closer look

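The effect of caffeine differed between the lines, by the test of the difference (SW620 minus SW480, log2 scale, edgeR with adjusted p under 0.05), for 9 of the genes named above. Among the members the differences were -0.71 for MCM6, -1.28 for GINS2, -0.96 for PCNA, -1.05 for FEN1, -0.71 for TYMS and -0.9995 for E2F1. Among the other pathway genes they were -0.72 for SAMHD1, -0.82 for TFDP1 and -0.70 for CHAF1A. For PCNA, MCM6, FEN1, E2F1 and the 3 pathway genes, the fall in SW620 was called and the change in SW480 was not; for TYMS, the rise in SW480 was called and the change in SW620 was not; GINS2 was called in both lines, in opposite directions.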

How the results depend on the processing

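No called gene changed sign under any alternative run. Uncalled members did: the share with a positive fold change was 87.5% in SW480 and 77.1% to 91.7% over the alternatives, 29.2% and 27.1% to 33.3% in SW620, and 10.4% and 4.17% to 12.5% in the difference. The members called higher in SW480 numbered 4, 9 with no filter on low counts, 0 to 9 with 1 library left out, and 0 without SW480 caffeine replicate 2 and mitochondrial genes together, an alternative chosen after seeing the data. The members called lower in SW620 numbered 9, 18 in a separate fit of the 4 libraries, and 2 to 14 with 1 library left out; those called higher numbered 3, and 0 to 3. In the difference between the lines, 6 members were called lower, 11 with no filter and 3 to 16 with 1 library left out, and 0 were called higher, 0 to 1 with 1 library left out (RFC1, without SW480 control replicate 2). The line difference kept 9 higher and 24 lower calls within 1.5 times throughout, and 23 of the 33 held under every omission. With 1 library left out the median log2 fold change of the members was 0.15 to 0.29 in SW480 and -0.27 to -0.13 in SW620. In the difference it was -0.53 to -0.32. The number of all tested genes called moved with these settings too, the omissions of 1 library included, so the swings are not particular to the members. In SW620 it was 2537 of 17671 in the main fit and 4561 of 17504 in the separate fit. With no filter, over 35897 genes, it was 1073 in SW480 and 1592 in the difference, beside 636 and 1185 in the main fit. The cause of these shifts was not tested.

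Replicate numbers were not treated as pairs: same-numbered libraries of a line had deviations that correlated at 0.0265 in SW480 and 0.0134 in SW620. Between the lines these correlations ran from -0.189 (SW480 control with SW620 caffeine) to 0.016 (the caffeine groups). With the replicate block, 5 members were called higher in SW480, 2 higher and 9 lower in SW620, 0 higher and 6 lower in the difference, and 9 higher and 23 lower between the lines. Calls lost with the block, among the genes named, were LIG1 in SW480 (0.0591), RFC1 in SW620 (0.0749), SAMHD1 in the difference (0.0522) and POLA1 between the lines (0.0511).

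With 2 libraries per group, 1 library decides many calls, and genes missing the threshold are not shown to be unaffected. RNASEH2A, at 2 to 23 counts, was filtered out; since the strand setting and annotation are not given, these counts may not reflect its level.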
